A study of Mus musculus with 52 samples.

Results

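Stab1, Stab2, Lyve1, Clec4g, Kdr, Flt4, Tek, Eng, Pecam1 and Cdh5 are genes by which the sinusoidal endothelium of the liver is recognised. They are described here in the livers of mice given 1 of 8 chemicals. The members were all probe sets of the array whose only gene symbol was 1 of these 10 names. This rule used no measured value, but the names were chosen with earlier results of these data known. There were 15 such probe sets of 22626 on the array, and all 15 passed the filter on low signals, so that the 10 genes stood among 10755 genes with a usable probe set. Stab1 (1450199_a_at), Stab2 (1419423_at), Kdr (1449379_at), Tek (1418788_at) and Pecam1 (1421287_a_at) had 1 probe set each. Lyve1 (1453128_at and 1429379_at), Clec4g (1427428_at and 1431575_at), Eng (1417271_a_at and 1432176_a_at), Cdh5 (1433956_at and 1422047_at) and Flt4 (1444052_at and 1421442_at) had 2 each, of which the brighter is named first. The brighter stands for the gene, and the other is given where it differs.

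Gene expression was measured on 52 Affymetrix arrays, each holding liver RNA pooled from 5 male B6C3F1 mice. Mice of 9 weeks received a single intraperitoneal dose, and livers were taken after 4 h, 20 h, 14 days and 28 days. Of the 6 genotoxic chemicals, 3 are aromatic compounds in olive oil: AAT (o-aminoazotoluene) at 300 mg/kg, DMBA (7,12-dimethylbenz[a]anthracene) at 20 mg/kg and DBP (dibenzo[a,l]pyrene) at 6 mg/kg. The other 3 are alkylating and were given in saline: ENU (ethylnitrosourea) at 150 mg/kg, DMN (dimethylnitrosamine) at 5 mg/kg and DPN (dipropylnitrosamine) at 250 mg/kg. The 2 non-genotoxic chemicals, also in saline, were EtOH (ethanol) at 1000 mg/kg and PB (phenobarbital) at 30 mg/kg. Each time had 8 treated arrays and 5 vehicle controls. AAT, DMBA and DBP shared 1 olive oil control at each time, EtOH and PB likewise shared 1 of saline, and a separate saline control belonged to each of ENU, DMN and DPN. All animals were of 1 sex and 1 strain. Since RNA was pooled, the spread between mice is not seen, and there is 1 array for each chemical and time. At each time the chemicals of a class served as its units. In fits over several times each array of a chemical counted as a unit. For a single chemical the spread of the 4 saline controls of that time was the only measure of error. Values are log2 signals after each array was scaled to a common median, with low signals raised to a floor, the 30th percentile over the whole table. A ratio is the log2 level of a treated array minus that of its own vehicle control, a difference is the limma estimate over a class or over all 8 chemicals with its SE, and a probe set was called at an adjusted p below 0.05. The question put to these genes was whether their ratio to the vehicle control differed between classes and between 4 h and 28 days.

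Sinusoidal endothelial cells line the capillaries of the liver lobule. They lack a continuous basement membrane, have open pores, and clear waste molecules from the blood through scavenger and lectin receptors, among them Stab1, Stab2, Lyve1 and Clec4g. Their upkeep depends on vascular endothelial growth factor (VEGF) from hepatocytes, read through Kdr, and on angiopoietins, read through Tek. They are known as an early target of several hepatotoxic chemicals, nitrosamines included. In RNA from whole liver, fewer cells of a type and less RNA per cell cannot be told apart.

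Some arrays stood apart from the rest. Array medians ran from 17.9 in the PB array of 28 days to 205 in a control of 14 days, and each array was scaled to a common median. In the EtOH array of 20 h the log2 ratio of the 3′ to the 5′ Gapdh probe sets, a sign of RNA breakdown, was 3.13, against -0.51 to 0.34 in the other 51 arrays. In that array 15.3% of all probe sets differed at least 2-fold from the control. The control that EtOH and PB shared at 20 h had a scaled log2 level of 11.5 for Cyp2b10, a gene that phenobarbital induces, against 6.19 to 7.26 in the other 4 controls of that time and 8.25 in the PB array, so the labels of that set are in doubt. Values of EtOH and PB at 20 h rest on these arrays. The tissue was liver by its markers: the summed signal of 9 hepatocyte genes, Alb and Ttr among them, lay between 16.0 and 16.8 on the log2 scale in every array of 4 h and 28 days.

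The promoters of Stab2, Clec4g, Stab1 and Flt4, which form the 4 pairs of members with the highest correlations of levels over the arrays, are shown first. The upstream sequence was taken from RefSeq (GRCm38.p6), with 250 bases before and 50 after the start of the gene, 5′ to 3′ on the strand of the gene. Entries existed for 7 of the 10 genes. Capitals mark the letters AGGAAG or CTTCCT, a longer form of GGAA, the core bound by ETS factors, some of which are transcription factors of endothelial cells. GGAA by itself was not searched. The longer form was in 4 of the 7 member promoters (Stab1, Stab2, Clec4g and Eng) and in 35.4% of all 32851 promoters of the same length. The letters GATAAG, bound by factors of the GATA family, were found on either strand in 1 of the 7, that of Tek, and in 7.44% of all promoters. The letters AACAAT, bound by SOX factors, were also found in 1, again that of Tek, and in 10.7% of all promoters. A match is a description of letters and not a binding site. Flt4, whose promoter held none of the letters searched, is shown for comparison, and its sequence does hold GGAA with other letters around it.
Stab2 (chr10:87007893-87008192, minus strand): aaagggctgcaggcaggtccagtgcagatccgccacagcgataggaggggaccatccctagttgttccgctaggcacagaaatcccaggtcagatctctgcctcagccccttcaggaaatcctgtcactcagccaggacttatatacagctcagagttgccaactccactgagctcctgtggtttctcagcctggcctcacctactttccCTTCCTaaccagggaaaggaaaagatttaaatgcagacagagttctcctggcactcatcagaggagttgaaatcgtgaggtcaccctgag
Clec4g (chr8:3720602-3720901, minus strand): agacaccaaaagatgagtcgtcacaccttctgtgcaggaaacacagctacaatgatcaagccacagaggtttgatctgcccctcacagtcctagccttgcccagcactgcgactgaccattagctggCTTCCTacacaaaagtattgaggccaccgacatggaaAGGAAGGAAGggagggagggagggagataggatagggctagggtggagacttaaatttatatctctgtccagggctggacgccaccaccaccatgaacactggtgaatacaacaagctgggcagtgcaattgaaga
Stab1 (chr14:31168592-31168891, minus strand): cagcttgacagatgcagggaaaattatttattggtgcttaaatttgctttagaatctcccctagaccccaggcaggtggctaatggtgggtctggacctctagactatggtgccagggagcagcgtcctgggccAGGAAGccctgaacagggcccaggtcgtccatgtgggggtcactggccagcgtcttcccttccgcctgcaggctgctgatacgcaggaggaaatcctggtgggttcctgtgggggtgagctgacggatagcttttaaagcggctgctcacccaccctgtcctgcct
Flt4 (chr11:49609429-49609728, plus strand): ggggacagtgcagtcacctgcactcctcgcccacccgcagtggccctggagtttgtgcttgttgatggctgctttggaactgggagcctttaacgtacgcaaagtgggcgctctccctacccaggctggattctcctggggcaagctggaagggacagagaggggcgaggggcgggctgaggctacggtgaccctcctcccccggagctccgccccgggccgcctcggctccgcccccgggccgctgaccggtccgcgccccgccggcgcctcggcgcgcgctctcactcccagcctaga

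Over all 8 chemicals the 10 genes lay slightly below their controls at 4 h and slightly above them at 28 days, and no single gene passed the test at either time. At 4 h the log2 difference from the control was negative for 8 of the 10 genes, with a median of -0.11, while 43.3% of all 18349 probe sets were negative, with a median of 0.02. At 28 days it was negative for 3 genes and positive for 7, with a median of 0.10 against 0.02 for all probe sets, of which 41.5% were negative. The change from 4 h to 28 days was positive for 9 of the 10 genes, with a median of 0.15 against -0.0010 for all probe sets, of which 50.6% were negative. Cdh5, at -0.0025, was the exception. With limma, 0 of the 15 probe sets were called at an adjusted p below 0.05 at 4 h (background 0.00545% of all probe sets), 0 at 28 days (background 0%) and 0 for the change (background 0%), and 3, 2 and 1 of the 15 had an unadjusted p below 0.05, as had 7.48%, 3.55% and 4.2% of all probe sets. At 4 h these were Stab2 and both probe sets of Eng, at 28 days both probe sets of Lyve1, and for the change Stab2. Without scaling of the arrays the median of all probe sets itself moved to -0.20 at 28 days, the members' median was -0.19, and 8 of the 10 genes were negative. The change from 4 h to 28 days was then positive for 5 of the 10 genes and negative for 5.

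**Figure D1:**
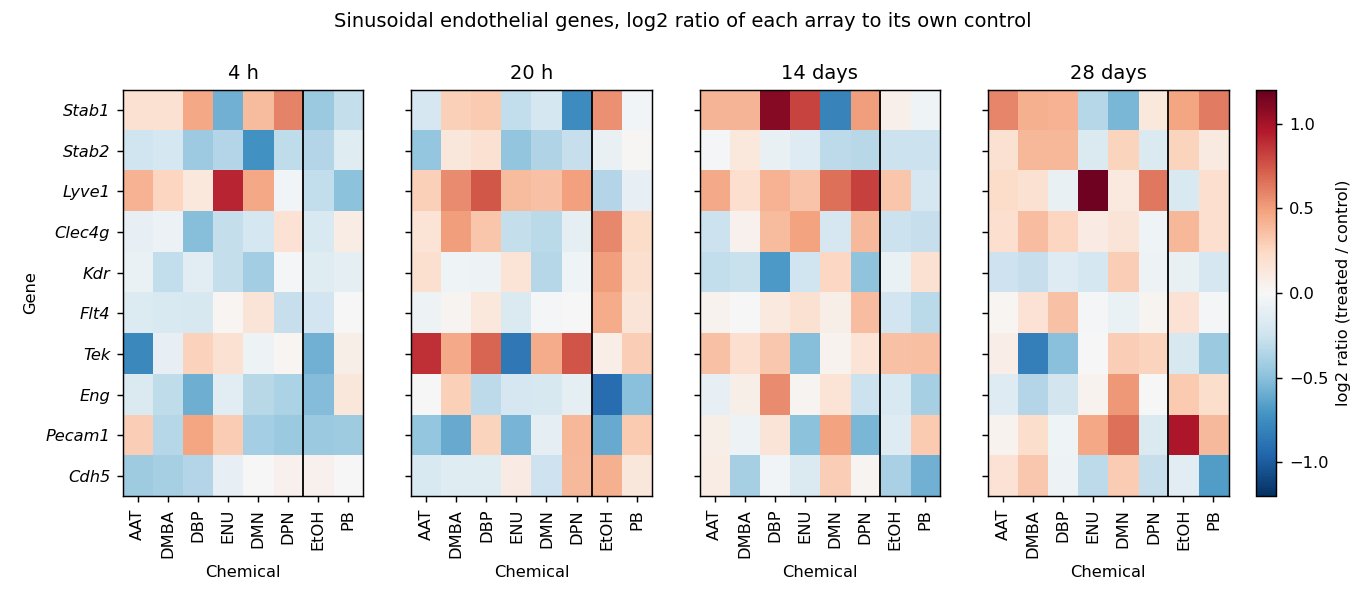
Each square gives the log2 ratio of 1 treated array to its own vehicle control for the 10 genes (rows) and 8 chemicals (columns) at 4 h, 20 h, 14 days and 28 days, and a black line parts the 6 genotoxic from the 2 non-genotoxic chemicals. Ratios ran from -0.91 to 1.16; Stab2 and Kdr were below their controls in all 8 columns at 4 h.

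The change between times had 2 sides, the treated livers and the controls. The level in the 5 vehicle controls was lower at 28 days than at 4 h for 8 of the 10 genes, with a median difference of -0.10 against 0.02 for all probe sets, of which 44.1% were lower. In Stab2 the controls differed by -0.32 (SE 0.10, limma adjusted p = 0.303) and in Clec4g by -0.31 (SE 0.13, limma adjusted p = 0.510). The mean level of the 8 treated arrays was higher at 28 days for 8 of the genes, by 0.32 in Eng, 0.28 in Stab1, 0.21 in Stab2, 0.16 in Pecam1, 0.15 in Tek and 0.03 or less in Kdr, Flt4 and Clec4g, and was lower in Lyve1 and Cdh5, by -0.20 and -0.04. In Stab2 the lower ratio at 4 h was thus measured against controls that were themselves at their higher level. Whether this level belongs to the age of the mice, the day of handling or the arrays cannot be told apart.

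**Figure D2:**
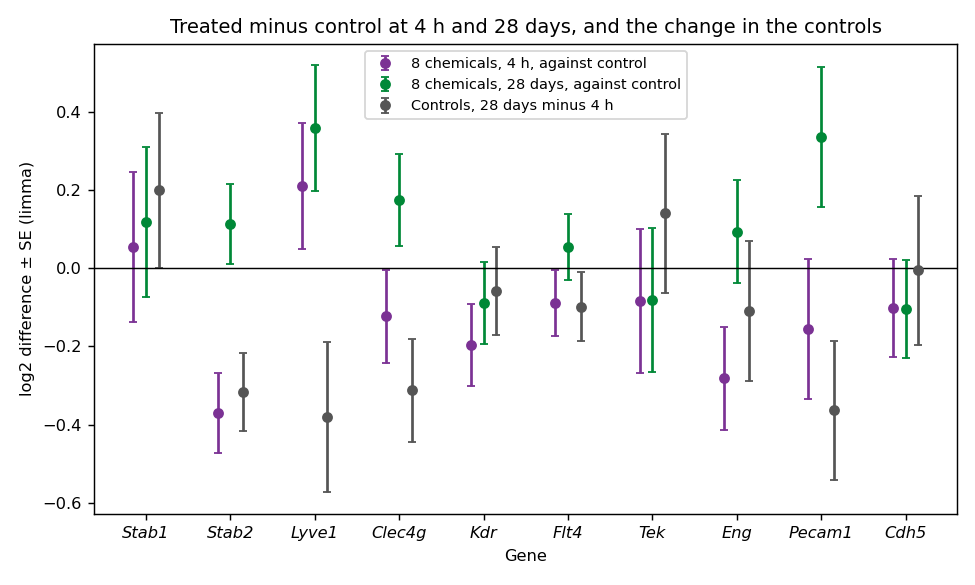
Points give limma log2 differences with their SE for each gene: the 8 chemicals against their controls at 4 h, the same at 28 days, and the change of the vehicle controls from 4 h to 28 days. For Stab2 the 4 h value is -0.37, the 28 day value 0.11 and the change of the controls -0.32.

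Stab2 encodes a scavenger receptor that takes up hyaluronan from the blood. At 4 h its scaled log2 level was 7.93 in the olive oil control, and 7.86, 8.15, 7.74 and 7.98 in the saline controls of ENU, DMN, DPN and of EtOH with PB. It was 7.69 with AAT, 7.72 with DMBA, 7.49 with DBP, 7.51 with ENU, 7.42 with DMN, 7.43 with DPN, 7.62 with EtOH and 7.83 with PB. All 6 genotoxic arrays and the EtOH array lay below the lowest control, and PB lay within the range of the controls. The ratio was negative for 8 of 8 chemicals, from -0.73 with DMN to -0.15 with PB, but these 8 ratios rest on 5 control arrays. The genotoxic class differed from its controls by -0.41 (SE 0.10, limma adjusted p = 0.415, where 0% of all probe sets were called), and all chemicals together by -0.37 (SE 0.10, limma adjusted p = 0.191). The difference was thus larger than the spread of the saline controls (SD 0.18, n = 4) and did not pass the correction over all probe sets.

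At 20 h the Stab2 ratio was -0.47 with AAT, -0.48 with ENU, -0.37 with DMN and -0.27 with DPN, all of which lay below the lowest control, and 0.14 with DMBA and 0.19 with DBP, which did not. At 14 days the ratio was negative for 7 of 8 chemicals, from -0.34 with DPN to -0.02 with AAT, and 0.13 with DMBA. At 28 days the controls lay close together, at 7.53 to 7.75, and the arrays of DMBA and DBP, both at 8.15, AAT at 7.93, DMN at 7.85 and EtOH at 7.80 were above all of them. ENU and DPN, at 7.43 and 7.44, were below all of them. The ratio was higher at 28 days than at 4 h in 8 of 8 chemicals, by 0.48 in the fit (SE 0.14, limma adjusted p = 0.959), and by 0.50 in the genotoxic class (SE 0.17, limma adjusted p = 0.848). The difference kept its direction under each of 23 other settings, from 0.27 to 0.56.

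**Figure D3:**
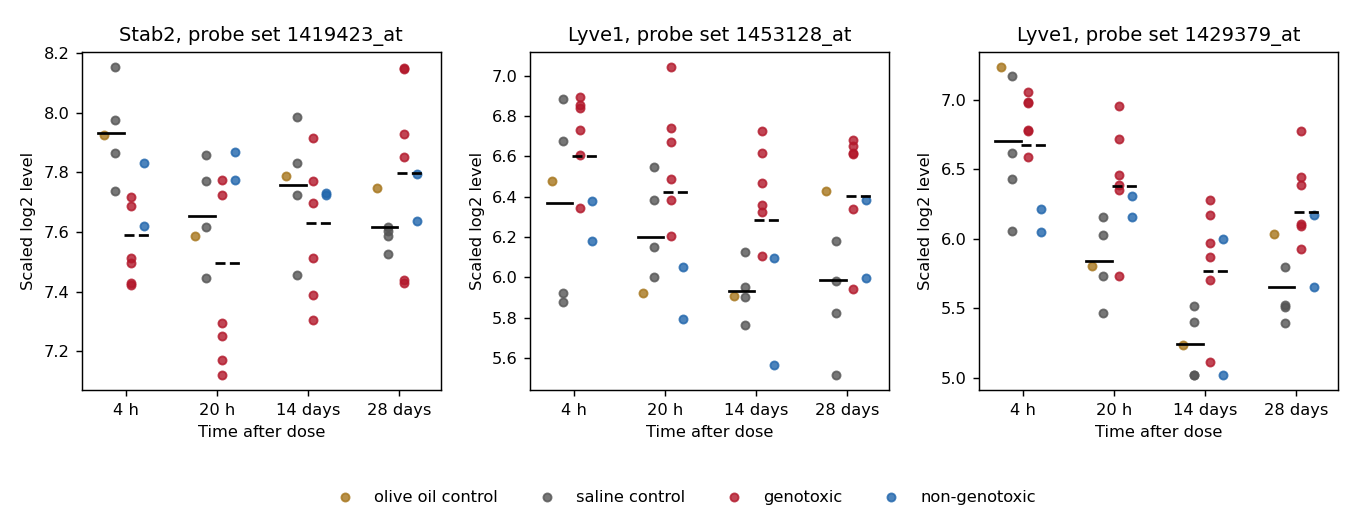
Scaled log2 level of Stab2 and of both Lyve1 probe sets in each array by time, with the mean of the 5 controls as a solid and of the 8 treated arrays as a broken line. Stab2 is lower in the treated arrays at 4 h, and most genotoxic arrays lie above the controls in both Lyve1 panels at 14 days.

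Lyve1 is a hyaluronan receptor of sinusoidal and lymphatic endothelium that some tissue macrophages also carry. Its brighter probe set was above the control in most genotoxic arrays at all times. The second was above it in 2 of 6 at 4 h and in most at the later times. At 20 h the brighter probe set was higher than the control with each genotoxic chemical, by 0.28 with AAT, 0.56 with DMBA, 0.75 with DBP, 0.38 with ENU, 0.35 with DMN and 0.49 with DPN. With EtOH and PB it was lower, at -0.35 and -0.10. At 14 days the controls lay between 5.76 and 6.13, and 5 of the 6 genotoxic arrays, between 6.33 and 6.73, lay above all of them, with DMBA at 6.11 as the exception. Over the 4 times the ratio was above 0 in 22 of 24 genotoxic arrays and in 2 of 8 non-genotoxic arrays. These 32 ratios rest on 20 control arrays, and those of EtOH and PB at 20 h on the set whose labels are in doubt. How many of all probe sets split in this way was not counted. In the second probe set the ratio was above 0 in 18 of 24 and in 5 of 8, so that the contrast between the classes was seen in the brighter probe set. The single arrays that fell below 0 in the genotoxic class were DPN at 4 h, with -0.03, and DBP at 28 days, with -0.09.

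In the fits of each time, Lyve1 in the genotoxic class was higher by 0.39 (SE 0.15) at 4 h, 0.45 (SE 0.13) at 20 h, 0.52 (SE 0.15) at 14 days and 0.46 (SE 0.19) at 28 days. None of these passed, with limma adjusted p values of 0.482, 0.965, 0.374 and 0.816, and limma called 0% of all probe sets for this class at each time. The mean over the 4 times, a contrast chosen after these values were seen, was 0.46 (SE 0.08, limma adjusted p = 0.00660) and 0.49 in the second probe set (SE 0.11, limma adjusted p = 0.0366). These were the only 2 of the 15 member probe sets called in that contrast, in which 0.49% of all probe sets were called and 0.425% were called higher. Since it was chosen on these arrays, the call is no independent evidence of the difference. The fit also held no term for the chemical, so the arrays of a chemical at the 4 times counted as separate units. The 90 probe sets called over the whole array became 9 without ENU and 2 without DPN. The call of the brighter probe set was lost without ENU (adjusted p = 0.0891), without DPN (adjusted p = 0.147), without the olive oil set (adjusted p = 0.0509) and with unscaled values (adjusted p = 1). The difference between the genotoxic and the non-genotoxic class in this mean was 0.59 (SE 0.17, limma adjusted p = 0.977, background 0%) and was not called, and it was 0.27 (SE 0.23, limma adjusted p = 0.996) in the second probe set.

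The 2 probe sets of Lyve1 gave ratios of the same sign in 23 of 32 treated arrays, and their levels over the 52 arrays had a Pearson r of 0.65. They disagreed in the olive oil set at 4 h, where the brighter gave 0.42, 0.25 and 0.13 with AAT, DMBA and DBP and the second gave -0.25, -0.45 and -0.65, and in EtOH and PB at 20 h, where the second gave 0.69 and 0.84. With ENU both probe sets were higher at all times, by 0.92 and 0.72 at 4 h and 1.16 and 0.53 at 28 days. The value of 1.16 was the largest ratio of any brighter probe set of the 10 genes. Lists of other cells known to carry Lyve1 stood beside it as follows, and their part in the result was not tested. Of 11 Kupffer cell and macrophage genes tested, 2 were higher in the genotoxic class at 4 h, 3 at 20 h, 10 at 14 days and 8 at 28 days, with medians of -0.21, -0.17, 0.19 and 0.05. In the mean over the times 7 were lower and 4 higher, with a median of -0.03. Of 4 lymphatic genes listed, only Pdpn and Prox1 were tested, and 1, 2, 0 and 1 of these 2 were higher at the 4 times. So few genes do not serve as a measure of lymphatic endothelium. None of these genes was called.

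**Figure D4:**
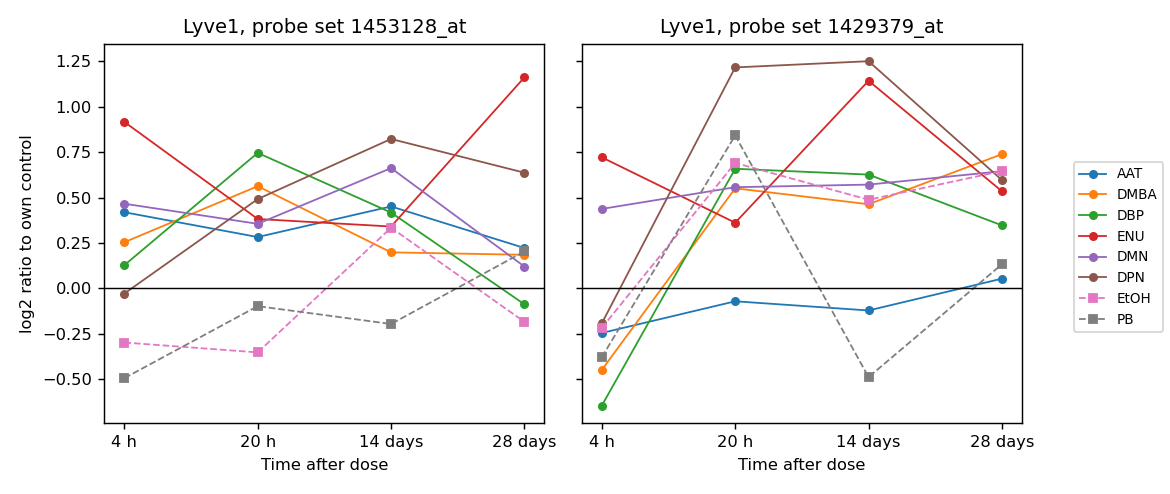
Log2 ratio of Lyve1 to the own vehicle control for each chemical by time, for the brighter probe set (left) and the second (right), with solid lines for genotoxic and broken lines for non-genotoxic chemicals. In the left panel 22 of the 24 genotoxic points lie above 0, in the right panel 18 of 24.

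The level of Lyve1 also moved with time in the controls. The second probe set was at 7.23 in the olive oil control and at 6.05, 6.62, 7.17 and 6.43 in the saline controls at 4 h. At 28 days these controls were at 6.04, 5.39, 5.80, 5.51 and 5.52. The lowest of 4 h lay only just above the highest of 28 days, at 6.05 against 6.04. How many of all probe sets part in this way was not counted. The change was -1.05 (SE 0.19, limma adjusted p = 0.0451), and this was the only member probe set called there, in a comparison in which 0.196% of all probe sets were called and 0.104% were called lower. The brighter probe set changed by -0.38 (SE 0.19, limma adjusted p = 0.624), and its controls overlapped, at 5.88 to 6.88 at 4 h and 5.52 to 6.43 at 28 days. The call was lost in 9 other settings, among them those without the ENU, DMN or DPN set (adjusted p = 0.0601, 0.171 and 0.236) or the olive oil set (adjusted p = 0.225), while the change itself stayed between -1.17 and -0.90 in all 9. The mean of the treated arrays was also lower at 28 days, but in the second probe set it fell less than that of the controls. There it went from 6.68 to 6.19, against 6.70 to 5.65 in the controls. The ratio of this probe set was below 0 with 6 of 8 chemicals at 4 h and above 0 with 8 of 8 at 28 days. In the brighter probe set the treated mean was 6.60 at 4 h and 6.40 at 28 days.

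Stab1, a scavenger receptor of the same family as Stab2, varied widely between chemicals. At 4 h its ratio was 0.19 with AAT, 0.18 with DMBA, 0.46 with DBP, 0.38 with DMN and 0.60 with DPN, but -0.58 with ENU, -0.45 with EtOH and -0.28 with PB. The saline controls of that time had an SD of 0.38 (n = 4), so all 8 ratios were within 2 SD. At 14 days DBP was at 1.09 and ENU at 0.81 while DMN was at -0.80, against an SD of the saline controls of 0.47. The ratio of DBP was 1 of 2 that reached 2-fold among the 320 ratios of the brighter probe sets (0.625%), with ENU in Lyve1 at 28 days as the other. Over all 15 probe sets 11 of 480 ratios did (2.29%), against 3.13% over all probe sets of the array. The difference for all chemicals was 0.05 (SE 0.19) at 4 h and 0.12 (SE 0.19) at 28 days. The change between the times was -0.19 (SE 0.31) in the genotoxic and 0.91 (SE 0.56) in the non-genotoxic class, and the difference of these changes, -1.10 (SE 0.64, limma adjusted p = 1), was not called.

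Clec4g, a C-type lectin of sinusoidal endothelium, was below its control with 6 of 8 chemicals at 4 h, from -0.51 with DBP to -0.07 with DMBA, and above it with DPN, at 0.17, and PB, at 0.09. At 28 days it was above its control with 7 of 8, from 0.10 with ENU to 0.40 with EtOH, and at -0.05 with DPN. The levels of treated and control arrays overlapped at both times. The change between the times was 0.30 (SE 0.17, limma adjusted p = 1). In the non-genotoxic class at 28 days it was higher by 0.30 (SE 0.12, limma adjusted p = 0.301, background 1.02% of all probe sets called). The second probe set was above the floor of the signal in 21 of 52 arrays, so that its ratios are mostly between values at the floor and are not read here.

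Kdr encodes the main signalling receptor for VEGF-A. At 4 h it was lower than its control with 8 of 8 chemicals, by a ratio of -0.08 with AAT, -0.30 with DMBA, -0.13 with DBP, -0.29 with ENU, -0.42 with DMN, -0.02 with DPN, -0.14 with EtOH and -0.12 with PB, and 6 of the 8 arrays lay below the lowest control. The saline controls had an SD of 0.08 (n = 4). The genotoxic class was at -0.22 (SE 0.08, limma adjusted p = 0.480). Later it was lower with 4 of 8 chemicals at 20 h, 6 at 14 days and 7 at 28 days, and the ratio was below 0 in 20 of 24 genotoxic arrays. The mean over the 4 times was -0.14 (SE 0.06, limma adjusted p = 0.290). DMN was the chemical with the lowest ratio at 4 h and 20 h, at -0.42 and -0.34, and with the highest at 14 and 28 days, at 0.25 and 0.30. The control of DMN was the highest of the controls at 4 h and 20 h, at 7.64 and 7.56, and the lowest at 28 days, at 7.27. The change of Kdr from 4 h to 28 days over all chemicals was 0.11 (SE 0.15).

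Flt4 encodes the receptor for VEGF-C and VEGF-D, and is found in sinusoidal and lymphatic endothelium. Its ratios were small at all times, from -0.32 with PB at 14 days to 0.44 with EtOH at 20 h in the brighter probe set. The difference for all chemicals was -0.09 (SE 0.09) at 4 h and 0.05 (SE 0.09) at 28 days. The second probe set gave the same sign in 13 of 32 arrays, with an r of 0.20 between their levels over the 52 arrays, and ranged from -0.71 with DPN to 0.69 with AAT at 4 h.

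Of the other VEGF genes, 6 of the list of 8 were tested and 0 passed in any comparison. All 6 changed in the positive direction from 4 h to 28 days, with a median of 0.14. The largest differences were 0.76 (SE 0.39) in Vegfb, a ligand of Flt1, 0.61 (SE 0.32) in Nrp1, a co-receptor, and 0.23 (SE 0.26) in Vegfd, a ligand of Flt4, each with a limma adjusted p of 1. Vegfa, the ligand of Kdr, was at 0.06 (SE 0.18).

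Tek encodes Tie2, the receptor of the angiopoietins. It had the widest spread of the members at 20 h, when it was higher with 7 of 8 chemicals, at 0.88 with AAT, 0.46 with DMBA, 0.70 with DBP, 0.44 with DMN, 0.75 with DPN, 0.08 with EtOH and 0.30 with PB, and lower with ENU, at -0.86. The 3 values of AAT, DMBA and DBP share 1 control, which at a scaled log2 level of 5.92 was the lowest of the time, and the control of ENU, at 7.10, was the highest. The treated arrays, from 6.25 to 7.22, included 2 above all controls and none below them. ENU also gave the lowest ratio at 14 days, at -0.51, where the other chemicals were between 0.04 and 0.36. For all chemicals the change from 4 h to 28 days was 0.0018 (SE 0.26). Of the angiopoietin list, 4 of 6 genes were tested and 0 passed in any comparison. Angpt4 differed by -0.29 (SE 0.17) and Angpt2 by -0.06 (SE 0.14) between the times, and both were at the floor in most arrays. Angptl4, an angiopoietin-like gene and not an angiopoietin, differed by -0.13 (SE 0.25).

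Eng, or endoglin, is a co-receptor for ligands of the bone morphogenetic protein (BMP) family. At 4 h its brighter probe set was lower than its control with 7 of 8 chemicals, at -0.17 with AAT, -0.30 with DMBA, -0.59 with DBP, -0.14 with ENU, -0.34 with DMN, -0.38 with DPN and -0.52 with EtOH, and at 0.13 with PB. Of the 8 arrays, 6 lay below the lowest control, and the saline controls had an SD of 0.06 (n = 4). This SD was the smallest of the members at 4 h, where their median was 0.18. In Eng it was 0.38 at 20 h, 0.44 at 14 days and 0.26 at 28 days. The difference for all chemicals was -0.28 (SE 0.13, limma adjusted p = 0.637), and the change to 28 days was 0.38 (SE 0.19, limma adjusted p = 1). The second probe set was also lower at 4 h, at -0.55 (SE 0.23, limma adjusted p = 0.553), with -1.89 with ENU, whose array was at the floor, and -1.16 with DMN, and higher with DMBA, DPN and PB. At 20 h the lowest ratio, -0.91 with EtOH, came from the array with the sign of RNA breakdown.

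Around endoglin, all 17 BMP and transforming growth factor genes of the list were tested and 0 passed in any comparison. The change from 4 h to 28 days was positive for 12 and negative for 5, with a median of 0.16. Id2, an inhibitor of DNA-binding factors that BMP signals induce, changed by 0.63 (SE 0.39), Tgfbr2 by 0.38 (SE 0.19) and Acvrl1, the receptor that binds BMP9 together with endoglin, by 0.33 (SE 0.22), each with a limma adjusted p of 1.

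Pecam1, an adhesion molecule of endothelial junctions and blood cells, lay near the floor of the signal, and 5 of the 52 arrays were at the floor. Its ratio was negative with 5 of 8 chemicals at 4 h and positive with 6 of 8 at 28 days, with 0.97 with EtOH, 0.66 with DMN and 0.46 with ENU. The control of ENU at 28 days was among the arrays at the floor. The change between times was 0.49 (SE 0.25, limma adjusted p = 1), and the controls changed by -0.36 (SE 0.18, limma adjusted p = 0.607). Cdh5, the cadherin of endothelial junctions, was lower at 4 h with the 3 chemicals of the olive oil set, by -0.43, -0.40 and -0.35 with AAT, DMBA and DBP, which share 1 control, and between -0.09 and 0.05 with the other 5. Its difference for all chemicals was -0.10 (SE 0.12) at 4 h and -0.10 (SE 0.12) at 28 days. The 2 probe sets of Cdh5 gave the same sign in 11 of 32 arrays.

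The members did not move as 1 group over the arrays. Over the 52 arrays, which share their time, scaling and control sets, the levels of pairs of members had a median Pearson r of 0.06, from -0.41 (Lyve1 and Kdr) to 0.63 (Clec4g and Flt4), and 29 of 45 pairs were positive. Next to that pair came Stab2 with Flt4 at 0.55, Stab1 with Flt4 at 0.53, Stab2 with Clec4g at 0.52, Stab2 with Eng at 0.51, Stab1 with Clec4g at 0.47, Stab2 with Pecam1 at 0.44 and Stab1 with Stab2 at 0.35. Of 10745 other genes, those most like the mean of the 10 standardised members were Oit3 (Pearson r 0.77, Spearman rho 0.75), Ramp2 (0.69 and 0.67), Fcgr2b (0.69 and 0.68), Dnase1l3 (0.65 and 0.60) and Cyp4b1 (0.65 and 0.62). Without the 2 arrays farthest from the median of that mean, r was 0.75, 0.64, 0.67, 0.57 and 0.61. Oit3, Fcgr2b and Dnase1l3 are also on the list of other sinusoidal genes and Ramp2 on that of general endothelial genes. These values are given without a test, since they were the highest of all genes compared.

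Of 18 other genes enriched in sinusoidal endothelium, 17 were tested and 0 passed in any comparison. At 4 h 12 were lower and 5 higher for all chemicals, with a median of -0.07, and at 28 days 1 was lower and 16 higher, with a median of 0.15. The change was positive for 15 of 17, with 0.47 (SE 0.26) in Oit3, 0.43 (SE 0.28) in Cd36, a fatty acid and scavenger receptor, and 0.37 (SE 0.15) in Aqp1, a water channel. In the vehicle controls 16 of the 17 were lower at 28 days, with a median of -0.13. Of 25 genes of endothelium in general, 19 were tested and 0 passed in any comparison. Of these, 11 changed in the positive and 8 in the negative direction, with a median of 0.02, and the largest changes were 0.49 (SE 0.22) in Sox18, a transcription factor of vessels, 0.30 (SE 0.26) in Cldn5, a tight junction protein, and 0.27 (SE 0.29) in Adgrl4, an adhesion receptor. Of 10 genes of activated endothelium 8 were tested and 0 passed, with -0.53 (SE 0.34) in Apln, 0.21 (SE 0.24) in Icam1 and -0.14 (SE 0.19) in Edn1.

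Markers of other liver cells moved beside the members, and their part in the result was not tested. Of 11 Kupffer cell genes tested, of 12 listed, 9 were lower and 2 higher at 4 h, with a median of -0.17, and 11 of 11 changed in the positive direction to 28 days, with a median of 0.27. Their summed log2 signal at 4 h was 11.5 to 12.2 in controls and 11.5 to 12.0 in treated arrays, lower than the own control in 8 of 8, and Marco was at the floor in most arrays. The summed log2 signal of the 10 members was 10.8 to 11.0 in controls and 10.6 to 10.9 in treated arrays at 4 h, also lower in 8 of 8, and at 28 days lower in 1 of 8. Stellate cell genes were lower in 7 of 8 tested at 4 h, of 10 listed, with a summed ratio below 0 in 6 of 8 arrays, and Lrat was at the floor in most arrays. Lymphocyte genes were lower in 5 of 7 tested, of 10 listed, with a summed ratio below 0 in 7 of 8 arrays and with Cd3g and Nkg7 at the floor in most arrays. Erythroid genes were higher in 3 of 3 tested, of 5 listed, with a summed ratio below 0 in 2 of 8 arrays and with Slc4a1 at the floor in most arrays. Hepatocyte genes went the other way at 4 h, with 9 of 9 tested, of 10 listed, above 0, a median of 0.10, and a summed ratio above 0 in 8 of 8 arrays. At 28 days, when most members were also above 0, the hepatocyte genes were again above 0 in 9 of 9, with a median of 0.09. Their change between the times was positive for 6 and negative for 3, with a median of 0.02. None of these genes was called at 4 h, at 28 days or between them over all chemicals.

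The classes were compared directly at each time. For genotoxic minus non-genotoxic chemicals, limma called 0 of the 15 member probe sets at 4 h, 20 h, 14 days and 28 days, where 0.104%, 0.114%, 0.0599% and 0.518% of all probe sets were called, and 1, 1, 2 and 0 of the 15 had an unadjusted p below 0.05, against 3.89%, 4.52%, 5.5% and 13.3% of all probe sets. In the non-genotoxic class alone it called 0 of 15 at each time (background 0.136%, 0.153%, 0.12% and 1.02%), with 0, 1, 1 and 1 at an unadjusted p below 0.05, against 3.51%, 5.49%, 3.21% and 15.5%. The background counts of 20 h rest on few arrays: without PB, which leaves the EtOH array with the sign of RNA breakdown, 2209 in place of 28 probe sets were called for the non-genotoxic class and 1531 in place of 21 for the difference of the classes. In the genotoxic class alone it called 0 of 15 at each time (background 0%), with 3, 2, 3 and 2 at an unadjusted p below 0.05, against 9.73%, 4.62%, 11.8% and 6.08%. Of these the probe sets of Lyve1 made up 1, 2, 2 and 2. The change from 4 h to 28 days did not separate the classes either: its median was 0.14 in the genotoxic and 0.38 in the non-genotoxic class, and the test of the difference called 0 of 15, with 0 at an unadjusted p below 0.05, against 0% and 2.76% of all probe sets.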

How the data were processed

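Total RNA from livers of 5 mice per array was pooled by the authors, hybridised to Affymetrix mouse arrays and deposited as linear probe set intensities with no statement of scaling. The 52 arrays were taken as 1 table, and no value was missing. The array named by the study is not the one to which the probe set names belong, so the names in the annotation given with the platform were used: 20380 probe sets had 1 gene symbol, 691 several and 1555 none.

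After removal of 64 Affymetrix control sets, each array was scaled to its median times the mean of the 52 medians (76.6). Intensities below the 30th percentile (32.5) were set to it, log2 was taken, and the 18349 probe sets above this floor in at least 4 arrays were kept. Samples were grouped by chemical, dose and time as given in the labels. The fit was made with the linear models of limma 3.58.1 under R 4.3.3, in which the control set was a fixed block and the prior variance followed mean intensity, and p-values were adjusted over all 18349 probe sets by Benjamini-Hochberg. Fits of each time had 6 residual degrees of freedom, the fit of both classes over all times 24, that of all chemicals 28 and that of the vehicle controls 12. These p-values measure the spread between pools and chemicals, not between mice. The limma scripts were tested on simulated data. Figures and descriptions used Python 3.11.15.

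Genes named were all 10 members, the 3 genes of each pathway or endothelial list with the largest change from 4 h to 28 days, and the 5 genes most like the members. Vegfa, the ligand of Kdr, was added after its values were seen. The members, lists and tests were chosen with earlier results of these data known. Alternatives covered scaling, floor, filter, block, variance trend, chemicals, control sets and probe sets. The mean over the 4 times, the fit without the PB array of 28 days and the chemical as a block were added after seeing the data. Precision is limited by how few arrays there are.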

Additional observations from a re-analysis of the deposited data

Results flagged for a closer look

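In groups of 4 to 6 arrays, the array farthest from the rest was compared with the range of its group by Dixon's criterion. Of 80 groups of the 10 genes, 10 held such an array. The rate of about 1 in 20 set by the criterion is for independent values. Here the ratios of AAT, DMBA and DBP share 1 control and the groups reuse the same arrays, so an excess over that rate was not tested. Among genotoxic ratios, Stab1 stood apart with ENU at 4 h (-0.58) and with DMN at 14 days (-0.80). Kdr stood apart with DMN at 28 days (0.30), the only genotoxic ratio of Kdr above 0 at that time. The control of DMN was then the lowest of the controls (log2 level 7.27). Tek stood apart with AAT at 4 h (-0.77) and with ENU at 20 h (-0.86) and 14 days (-0.51). Among saline controls, the array that stood apart was that of DMN for Kdr at 4 h (log2 level 7.64), that of DPN at 20 h for Pecam1 (5.32) and Cdh5 (6.48), and that of EtOH and PB for Flt4 at 14 days (8.09).

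Lyve1 at 20 h was above the control with all 6 genotoxic and below it with both non-genotoxic chemicals, and the means of the ratios differed by 0.70. The opposite sides themselves were not tested. In the limma fit the difference of the classes was 0.68 (SE 0.26, adjusted p = 0.885), and its second probe set gave -0.17 (SE 0.42, adjusted p = 0.951). The non-genotoxic values rest on the EtOH array with the high 3′ to 5′ ratio and the control with the high Cyp2b10 level.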

How the results depend on the processing

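No call was made for a member in any comparison of a class or of all chemicals at a single time, nor between 4 h and 28 days, under any of 22 other settings. The mean over the 4 times in the genotoxic class had 2 called probe sets, both of Lyve1. There were 0 with values as deposited, 1 each with 75th percentile scaling, a floor at the 20th percentile, no filter or without the olive oil set, and 0 to 2 with 1 chemical left out. The brighter probe set stood at 0.46 (adjusted p = 1) as deposited, at 0.53 (adjusted p = 0.0509) without the olive oil set and at 0.39 to 0.47 with 1 chemical left out. In the vehicle controls the 1 called probe set became 0 as deposited, with a floor at the 20th percentile, with no filter, with no control set block, without the EtOH and PB set of 20 h and without the olive oil set, and 0 to 1 with 1 chemical left out. Its change stayed between -1.17 and -0.90 in all settings. With a limit of 1.5-fold in place of 2-fold, 28 of 320 ratios passed in place of 2.

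Signs that turned were mostly of values near 0. With values as deposited, the difference at 28 days was -0.14 in Stab1, -0.18 in Stab2, -0.12 in Clec4g, -0.20 in Eng and -0.24 in Flt4, that at 4 h was -0.022 in Stab1, and the change between the times was -0.12 in Stab1, -0.11 in Kdr, -0.14 in Tek and -0.076 in Flt4. In Stab2 the genotoxic difference at 28 days became -0.047 as deposited and -0.028 without the olive oil set, and the class difference over the times became 0.32 as deposited. Without the olive oil set Stab1 was at -0.022 at 4 h and -0.0077 at 28 days, Tek at 0.034 at 28 days, and Cdh5 at 0.00041 at 4 h and 0.13 in the controls. The mean over probe sets of Cdh5 was 0.0040 at 4 h, 0.063 at 28 days and 0.059 for the change, and that change was 0.065 without the PB array of 28 days. The change in Tek was -0.0032 with 75th percentile scaling and -0.0070 with quantile normalization. With 1 chemical left out, the 4 h difference of Stab1 ran from -0.057 to 0.19, the change from -0.017 to 0.14 in Kdr, -0.12 to 0.089 in Tek and -0.064 to 0.069 in Cdh5, and the change of the controls from -0.090 to 0.022 in Kdr, -0.16 to 0.015 in Eng and -0.16 to 0.064 in Cdh5. The causes were not tested. With 1 chemical left out, the count of all probe sets called at 20 h ran from 20 to 2209 in the non-genotoxic class (28 with all), from 8 to 1531 in the class difference (21 with all), and from 2 to 98 in the genotoxic mean over the times (90 with all). Treated arrays are paired with controls by the control set, a block in every fit, and with no control set block the other calls of members stayed as they were. With the chemical also a replicate block across the times, chosen after seeing the data, the change of Stab2 from 4 h to 28 days was 0.48 with an adjusted p of 0.80 in limma, and 0 member probe sets were called. The mean over the 4 times was not fitted with this block.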
